A study of Caenorhabditis elegans with 4 samples.

Results

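The regions described here are the binding sites of ZIP-8 that lie close to another one along the chromosomes of Caenorhabditis elegans embryos. ZIP-8 is the product of the gene zip-8, also named F23F12.9, and belongs to the bZIP (basic leucine zipper) transcription factors. Sites were mapped by ChIP-seq, in which DNA bound to a protein is collected with an antibody and sequenced. Overlapping intervals of the deposited combined peak list were joined into 2203 regions, and a region was taken as a member when the gap between its edge and that of another region was at most 5000 bp. This rule found 619 members, 28.1% of the 2203 regions, and left 1584 isolated regions. Members were chained with the same gap into 277 clusters. Distance between midpoints, in place of edges, would give 584 members in 263 clusters, so 35 members rest on the distance being taken between edges.

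The animals were of strain OP327, which carries F23F12.9 with a GFP::3xFlag tag on the transgene wgIs102, and were grown at 20 °C as a mixed population of males and hermaphrodites. The genotype field gives the background allele as unc327(ed3), and the strain's description names unc-119(ed3). The transgene was made by recombineering and brought in by bombardment, so the tagged protein came from an introduced copy of the gene, and both ChIP and input samples carried it. An anti-GFP antibody was used for 2 ChIP samples (replicates 1 and 2), and 2 input samples were kept as total DNA. Each ChIP sample has a peak list of its own, and the combined list stands for both. The input samples have no list analysed here, and the labels do not say whether replicates came from separate cultures.

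A bZIP protein grips DNA as a dimer: a leucine zipper joins both partners, and the basic stretch of each reads a short sequence in the major groove. Several bound places near one another are a common feature of regulatory DNA, where promoters and enhancers gather many factors. In C. elegans genes are packed closely, and many transcription factors have been mapped to shared stretches where numerous other factors also bind. No sequence or gene position is given for the regions below, because the genome build of the lists, WormBase WS220, was not used here.

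The data hold intervals, a peak number and a score, and no read counts, so depth is unknown. The score is a single value throughout the combined list. Peaks are ordered here by the deposited peak number, so that low numbers are early peaks. In both replicate lists it ran opposite to the score (Spearman rho −0.99 across peaks in each). Replicate 1 had 20879 nuclear peaks, mostly 384 bp wide, and replicate 2 had 13776, mostly 600 bp wide. In what follows the leading peaks of a replicate are its first 2237 nuclear peaks, as many as the combined list holds. Since the rule used the positions of the combined list, and that list belongs to the same experiment as both replicate lists, the values below are descriptions and no test was made of them. Shares carry 95% Wilson intervals, which cover counting error only. Members of 1 cluster share a stretch of chromatin and are not independent.

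Most clusters were pairs. Of the 277 clusters, 227 held 2 regions, 39 held 3, 8 held 4, 2 held 5 and 1 held 6. Pairs made up 81.9% of clusters and held 73.3% of members. Clusters spanned a median of 3217 bp when they held 2 regions and 5072 bp when they held 3. The largest span was 15984 bp. All clusters together spanned 1026 kb, 1.02% of the nuclear span, of which the regions themselves covered 237 kb. Within a cluster the regions covered a median of 23.3% of the stretch, so most of a typical cluster was gap.

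Spacing showed no sharp edge at the threshold. The 342 gaps inside clusters had a median of 2279 bp, with quartiles of 989 and 3503 bp, and ran from 8 to 4968 bp. Gaps of up to 1000 bp were the most frequent, with 88 pairs. The next bins of 1000 bp held 69, 66, 60 and 59 pairs, and the first bin beyond the threshold held 51. At a finer scale, gaps of up to 250 bp were found in 15 pairs, gaps of 250 to 500 bp in 21, and gaps of 500 to 750 bp in 29, the highest count of any bin of 250 bp. Over all adjacent regions the median gap was 28043 bp. The members nearest to the threshold were at chromosome III 5758606 to 5759085 (nearest gap 4968 bp), chromosome II 5518088 to 5518389 and chromosome IV 2645157 to 2645636. Just outside it, the regions at chromosome III 179260 to 179442 and 184445 to 184606 lay 5002 bp apart, and the region at chromosome II 4789743 to 4789937 had its neighbour 5022 bp away.

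**Figure D1:**
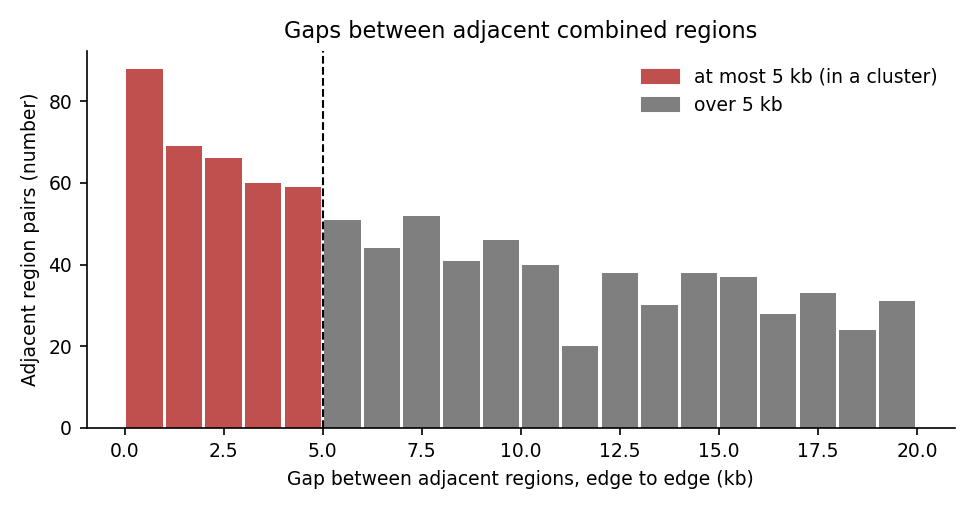
Number of pairs of adjacent combined regions (vertical axis) by the gap between their edges in kb (horizontal axis, bins of 1 kb up to 20 kb). Red bars are gaps inside clusters and the dashed line marks the 5 kb threshold. The count declines from 88 pairs in the first bin to 51 just past the line, with no break at it.

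The cluster with most regions lay on the X chromosome at 12996191 to 13012174 and held 6. From left to right their peak numbers were 276, 1125, 360, 378, 1282 and 521, separated by gaps of 2062 to 3819 bp. In replicate 1 these regions met peaks 210, 984, 262, 405, 1448 and 1082. In replicate 2 they met peaks 3825, 5260, 2114, 491, 720 and 160. All 6 were thus present in both lists. The order differed: the leftmost region came first in replicate 1 and the rightmost in replicate 2.

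Both clusters of 5 regions lay in the left part of their chromosomes. The cluster on chromosome I at 2599454 to 2612058 held peak numbers 117, 298, 103, 18 and 1467. Replicate 1 had 115, 252, 142, 13 and 1137 there, and replicate 2 had 266, 2033, 62, 81 and 3525. It thus held 3 regions that were within the first 300 peaks of every list. The cluster on chromosome V at 1573231 to 1581632 held peak numbers 979, 1393, 305, 340 and 1397. Its regions met replicate 1 peaks 1016, 2272, 352, 766 and 1057. Replicate 2 gave numbers 5874, 457, 168 and 96 for the first 4, and no peak for the last.

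The 8 clusters of 4 regions were 4308 to 12222 bp long, and 3 of them lay on chromosome III. At chromosome X 10203514 to 10210412 the first 3 regions were early in all lists, with combined numbers 353, 157 and 108, replicate 1 numbers 506, 238 and 132, and replicate 2 numbers 144, 60 and 82. The region that closed this cluster came late, with combined number 1376 and replicate 2 number 8589. At chromosome IV 12545955 to 12553005 the early regions (combined 142 and 75, replicate 1 195 and 89, replicate 2 46 and 88) were followed by late ones (combined 1928 and 2098). At chromosome III 353685 to 358464 the numbers were 527, 2123, 492 and 35. At chromosome III 1454257 to 1458564, the most compact of the 8, they were 1479, 418, 149 and 1268, and the first of these regions had no replicate 2 peak. At chromosome II 11285231 to 11297452, the longest of the 8, they were 2055, 23, 933 and 683. A mixture of early and late regions was thus seen in each of these 5 clusters. The remaining 3 lay at chromosome III 6826149 to 6831567, chromosome IV 16403365 to 16412326 and chromosome I 2568045 to 2578576. Their lowest numbers were 203, 392 and 660, and their highest were 1012, 1794 and 1655. Numbers thus differed widely in these 3 too.

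**Figure D2:**
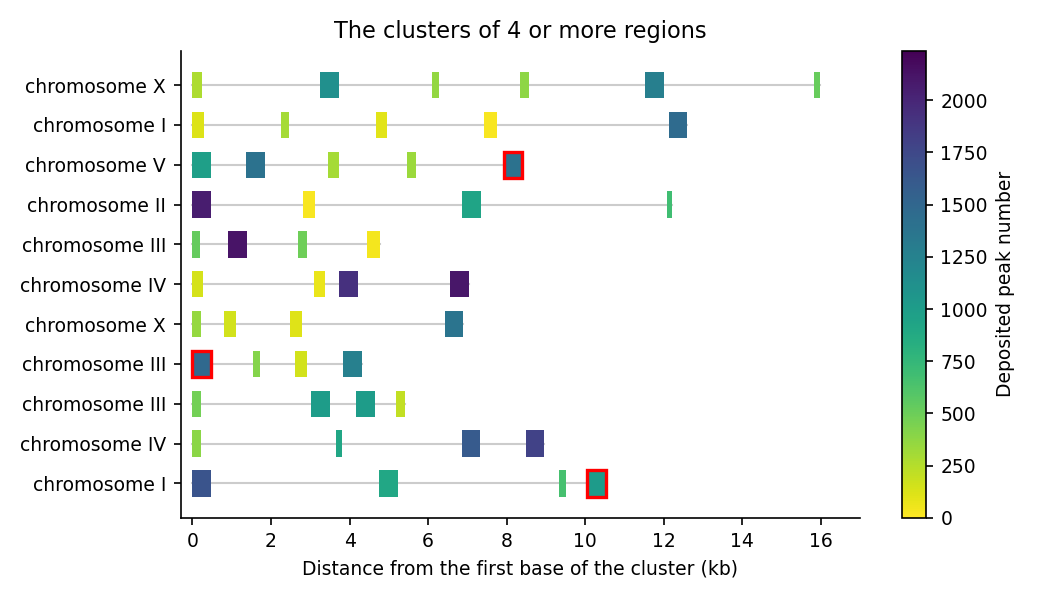
The 11 clusters of 4 or more regions, 1 per line, drawn to scale from the first base of each cluster (horizontal axis in kb). Each block is a region, coloured by its deposited peak number, with yellow for the first peaks, and a red outline marks the 3 regions with no replicate 2 peak. Early and late regions stand beside one another in the same cluster.

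Among the first 100 peaks of the whole list, 35 were members (35.0%, interval 26.4 to 44.7%), against 28.1% of all regions. The clusters below were picked for the lowest numbers, so later neighbours follow from that choice. The median number over all regions was 1113. Peak number 1, at chromosome II 2997558 to 2998439, ended a cluster of 3 that began at 2995495. It was number 1 in both replicates. Its neighbours had combined numbers 728 and 1843, and the second of these met no replicate 2 peak. Peak number 5, at chromosome I 11102331 to 11102693 (numbers 8 and 3 in replicates 1 and 2), had peak 1468 as its neighbour 3515 bp away. On chromosome IV, peak number 6 at 12689291 to 12689662 (replicate numbers 6 and 7) was followed by peaks 1877 and 2076. Peak number 7, on chromosome I at 2273072 to 2273649 (replicate numbers 3 and 50), lay 4093 bp from peak 1348. Peak number 11, on chromosome II at 12966232 to 12966587 (replicate numbers 12 and 18), lay 2795 bp from peak 1953. Peak number 14, on chromosome I at 2858721 to 2859070 (replicate numbers 18 and 9), stood between peaks 907 and 2101.

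The 10 clusters with the lowest numbers also included a pair on chromosome III at 9963409 to 9965699. Both of its regions were early in every list, with combined numbers 56 and 26, replicate 1 numbers 57 and 37, and replicate 2 numbers 72 and 14. They lay 1646 bp apart. A pair on chromosome IV at 16503833 to 16506064 held peaks 17 and 499, which had replicate 1 numbers 22 and 1070 and replicate 2 numbers 21 and 101. The other clusters among these 10 were the large ones with peaks 18 and 23. The first clustered peak of chromosome V was number 36, at 5949766 to 5950104 (replicate numbers 32 and 121), 410 bp from peak 1243. On the X chromosome it was number 58, at 14486321 to 14486711 (replicate numbers 181 and 5), in a cluster with peaks 2180 and 1789.

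The closest regions were separated by a few bases. On chromosome I, regions at 14277020 to 14277365 (peak 136) and 14277374 to 14277508 (peak 1105) had 8 bp between them. The lowest replicate 1 numbers there were 149 and 1936, from peaks that overlapped each other, and replicate 2 gave the same peak, 204, for both. On chromosome I at 2253128 to 2253500 (peak 40) and 2253518 to 2253745 (peak 421) the gap was 17 bp. Replicate 1 again had overlapping peaks, 33 and 646, and replicate 2 gave peak 452 for both regions. Neither list therefore held these regions as separate intervals. On chromosome III the regions at 6478240 to 6478570 (peak 118) and 6478580 to 6478927 (peak 27) had 9 bp between them. Replicate 2 had peaks 13 and 38 there. Replicate 1 had peak 56 at the second and no peak at the first. A further region to the left (peak 596) completed that cluster, which spanned 1873 bp. Whether this cluster lies at the locus of the tagged gene itself, where DNA of the introduced copy would add to the signal, was not tested, since gene positions of build WS220 were not used here.

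Whether each replicate list held neighbours as separate sites was then counted over the 342 pairs of adjacent members. Replicate 1 held 331 pairs as separate intervals (96.8%, interval 94.3 to 98.2%). In 7 pairs a single joined interval met both regions, and in 4 pairs 1 region had no peak. Replicate 2 held 263 pairs as separate intervals (76.9%, interval 72.2 to 81.1%). It had 22 pairs under a single joined interval, 53 pairs with 1 region unmatched and 4 pairs with both unmatched. Both replicates separated 259 pairs (75.7%). No such share is given for adjacent isolated regions, so these values describe the close pairs only. Pairs under a single interval were all closely spaced. Of the 36 pairs with gaps of up to 500 bp, replicate 1 separated 28 and replicate 2 separated 11. From 1001 bp upwards no pair fell under a single interval in either list. Peaks were mostly 384 bp wide in replicate 1 and 600 bp in replicate 2. A single peak of either width cannot span such a gap. A pair that far apart was separate whenever both of its regions met a peak. The pairs that replicate 2 did not separate there had 1 or both regions unmatched. Of all members, 90.5% met a replicate 2 peak. The counts at gaps of up to 500 bp depend on the peak widths. Between 4001 and 5000 bp replicate 1 separated all 59 pairs and replicate 2 separated 51.

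The gaps themselves held further replicate peaks, and few of these were leading ones. Among all replicate peaks outside the combined regions, leading ones numbered 254 of 18468 in replicate 1 and 824 of 11471 in replicate 2. Few leading peaks would thus be found in the gaps in any case. A replicate 1 peak lay wholly inside 120 of the 342 gaps (35.1%), but a leading one in 6 (1.75%). For replicate 2 these counts were 82 (24.0%) and 15 (4.39%). Stretches of like length elsewhere were not counted. Isolated regions were not alone in the replicate lists either. Replicate 1 peaks outside the combined regions lay within 5 kb of 87.8% of isolated regions and 88.4% of members. For replicate 2 peaks the shares were 70.2 and 75.6%. There were 18468 such peaks in replicate 1 and 11471 in replicate 2, over a nuclear span of 100.2 Mb. Many other places would thus also lie near one, and their share was not computed. For leading replicate 1 peaks the shares were 2.59% (interval 1.91 to 3.49%) and 4.20% (interval 2.88 to 6.08%). For leading replicate 2 peaks they were 11.4% (interval 9.89 to 13.0%) and 15.5% (interval 12.87 to 18.57%). Replicate 2 had more leading peaks outside the combined regions, 824 against 254.

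Members stood earlier in the peak order than isolated regions. Their median peak number was 1006 (quartiles 440 and 1617), against 1160 (quartiles 599 and 1689) for isolated regions, a difference of −153.5 (interval −253.7 to −31.7). With gaps of 2000 and 10000 bp it was −66.0 (interval −218.4 to 33.05) and −92.0 (interval −187.0 to 5.94), so that both intervals took in 0. The ranges overlapped almost completely. Among the first 500 peaks, 177 of 497 regions were members (35.6%, interval 31.5 to 39.9%). Among peaks 501 to 1000 the share was 26.4% (interval 22.7 to 30.4%), and among peaks 1501 to 2237 it was 25.2% (interval 22.1 to 28.5%). The excess was thus at the head of the list. Leading peaks of each replicate, clustered by themselves, showed the same direction: 31.6% of regions from the first 500 peaks against 23.9% of later ones in replicate 1, and 38.4% against 30.5% in replicate 2. Median numbers were lower in larger clusters, with 1071 in pairs, 907 in clusters of 3 and 793 in clusters of 4. The values for clusters of 5 and 6, with 322.5 and 449.5, rest on 10 and 6 regions.

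**Figure D3:**
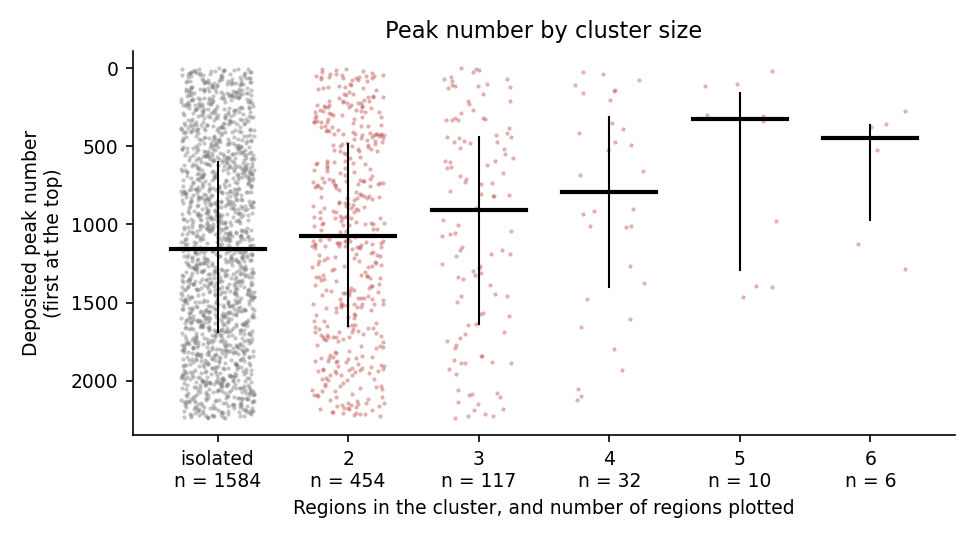
Deposited peak number of each combined region (vertical axis, first peaks at the top) by the number of regions in its cluster (horizontal axis, with the number of regions plotted). Horizontal bars are medians and vertical lines run between quartiles. The medians move from 1160 for isolated regions to 793 in clusters of 4, while the points of the groups overlap widely.

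Neighbours in a cluster differed widely in peak number. The absolute difference between adjacent members had a median of 678, and that between adjacent isolated regions had a median of 634. Spearman's rho between neighbours' numbers was 0.030 over the 342 close pairs and 0.008 over 1348 pairs of adjacent isolated regions, given as descriptions. In 114 of the 277 clusters (41.2%) the highest number was under 2 times the lowest, and in 40 (14.4%) it was at least 10 times. Pairs in which both regions were among the first 500 peaks made up 10.2% of close pairs (35) and 3.56% of isolated ones (48). The first 500 peaks held 177 of the 619 members and 320 of the 1584 isolated regions. Such pairs would thus be more frequent among members even if neighbours were unrelated. At least 1 region of the first 500 was present in 140 clusters, all regions were among the first 500 in 17, and all lay beyond number 1500 in 23. The first region of a cluster had no fixed place: in clusters of 3 it was the middle region in 14 of 39.

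The replicates named the same leading region in part of the clusters. In 211 clusters each region met its own peak in both lists. The region with the lowest combined number was also lowest in replicate 1 in 186 of them (88.2%) and lowest in replicate 2 in 146 (69.2%). Replicates 1 and 2 had the same first region in 121 (57.3%, interval 50.6 to 63.8%). These were 107 of 175 pairs (61.1%, interval 53.8 to 68.1%) and 14 of 36 larger clusters (38.9%, interval 24.8 to 55.1%). Unrelated orders would give the same first region in 50% of pairs and in a smaller share of larger clusters. Over adjacent members with numbers in both lists, the order was the same in 164 of 272 pairs (60.3%, interval 54.4 to 65.9%). Adjacent isolated regions gave 58.4% (575 of 984, interval 55.3 to 61.5%), within the interval of the close pairs. Where the replicate 1 numbers of a close pair differed by at least 2 times, 111 of 155 pairs had the same order in replicate 2 (71.6%, interval 64.1 to 78.1%). For adjacent isolated regions the matching share was 65.2% (362 of 555, interval 61.2 to 69.1%), and the intervals overlap.

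More members than isolated regions departed from the most common width. Members were 480 bp wide in 359 of 619 cases, and 260 (42.0%, interval 38.2 to 45.9%) had another width, 249 of them a narrower one. For isolated regions the share with another width was 31.9% (interval 29.6 to 34.2%). The median was 480 bp in both groups. Within the first 500 peaks nearly every region had another width, 98.3% of members and 95.9% of isolated regions, and beyond number 1500 the shares were 1.66% and 0.929%. Among peaks 501 to 1000 they were 49.2 and 47.1%. Among peaks 1001 to 1500 the intervals were apart, with 14.5% of members (interval 9.49 to 21.5%) and 6.06% of isolated regions (interval 4.04 to 9.01%). Pairs in which both regions were 480 bp wide numbered 114, those with 1 such region 160, and those with none 68. Their median gaps were 2335, 2363 and 1958 bp.

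Overlap with replicate 1 was nearly complete. Of all 2203 combined regions, 99.9% overlapped a replicate 1 peak by at least 1 bp, including 617 of 619 members (interval 98.8 to 99.9%) and 1583 of 1584 isolated regions. Both members without a replicate 1 peak were in clusters of 3. Leading replicate 1 peaks were met by 88.4% of all regions, 86.8% of members (interval 83.9 to 89.2%) and 89.1% of isolated regions (interval 87.4 to 90.5%). These intervals overlap, and the difference of −2.33 percentage points had an interval of −5.56 to 0.61.

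Overlap with replicate 2 was less complete and was higher in clusters. Of all combined regions, 87.1% overlapped a replicate 2 peak. The share was 90.5% among members (560 of 619, interval 87.9 to 92.5%) and 85.7% among isolated regions (1358 of 1584, interval 83.9 to 87.4%), a difference of 4.74 percentage points (interval 1.69 to 7.49). Peaks of both replicates were met by 86.9% of all regions, 90.1% of members and 85.7% of isolated regions. Every region met a replicate 2 peak in 222 of the 277 clusters (80.1%). This count depends on the share of members matched and is no separate result. With midpoints within 100 bp as the rule the difference was 4.51 percentage points. With a reciprocal overlap of 50% it was −0.208, the shares being 59.5 and 59.7%. By that rule a region under 300 bp cannot match a peak of 600 bp, and 33.1% of members and 26.1% of isolated regions were narrower than this.

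A wider difference was seen for leading replicate 2 peaks. These were met by 60.7% of all combined regions, by 426 of 619 members (68.8%, interval 65.1 to 72.3%) and by 911 of 1584 isolated regions (57.5%, interval 55.1 to 59.9%). The difference was 11.3 percentage points (interval 6.84 to 15.6). The median replicate 2 number was 921.5 over 560 members and 1278 over 1358 isolated regions, where replicate 1 gave 1064 and 1150. With reciprocal overlap the difference was 4.04 percentage points (interval −0.47 to 8.61).

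Because members came earlier in the combined order, the shares were also set side by side within parts of that order. Any replicate 2 peak was met by 99.4% of members and 98.8% of isolated regions among the first 500 peaks, by 92.3 and 91.7% among peaks 501 to 1000, and by 89.3 and 88.4% among peaks 1001 to 1500. Beyond number 1500 the shares were 81.2% (interval 74.9 to 86.2%) and 72.1% (interval 68.2 to 75.7%). The difference in any overlap was thus widest in the last part of the order, where the intervals overlapped. Members also had more of their regions among the first 500 peaks, 177 of 619 against 320 of 1584. How much each of these adds to the whole difference was not computed. For leading replicate 2 peaks the share of members was higher in all 4 parts. The difference was clearest among peaks 501 to 1000, with 79.2% of members (interval 71.5 to 85.3%) and 64.7% of isolated regions (interval 59.7 to 69.5%). In the other 3 parts the intervals overlapped, with 95.5 and 90.9%, 58.0 and 53.7%, and 43.1 and 35.3%. A wide replicate 2 peak can meet both regions of a close pair. Among members whose nearest gap was over 1000 bp, 66.9% met a leading replicate 2 peak, 9.38 percentage points above isolated regions.

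**Figure D4:**
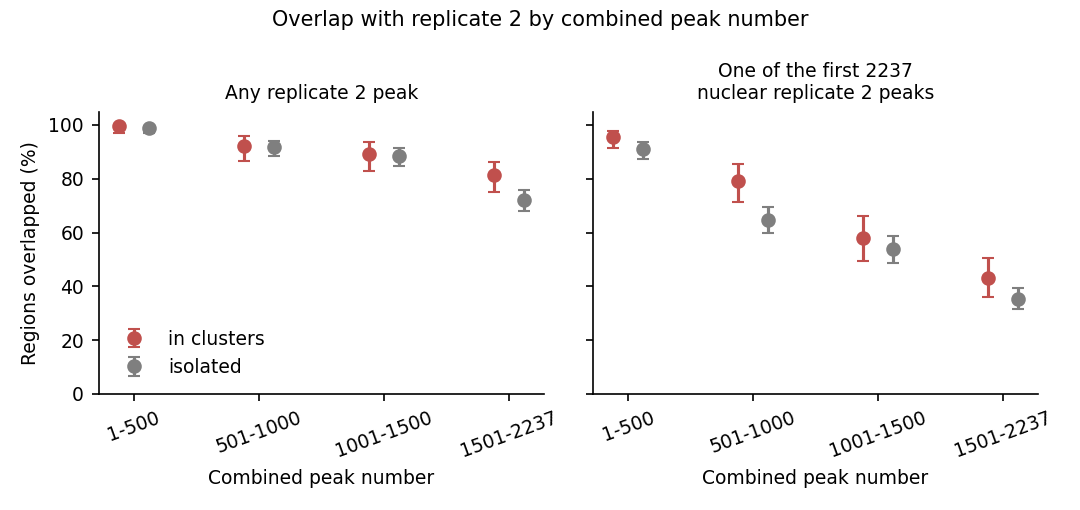
Share of combined regions overlapped by any replicate 2 peak (left) and by one of its first 2237 nuclear peaks (right), in percent, by combined peak number. Red points are regions in clusters, grey points isolated regions, and bars are 95% Wilson intervals. In the right panel members lie above isolated regions in all 4 parts, and the intervals are apart for peaks 501 to 1000.

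Clusters were found on every chromosome, and their share was highest on the chromosomes with the densest regions. On chromosome I, with 28.7 regions per Mb, 146 of 432 regions were members (33.8%, interval 29.5 to 38.4%), in 67 clusters. On chromosome III, with 26.0 regions per Mb, the share was 31.8% (interval 27.2 to 36.8%), in 51 clusters. Chromosomes II, IV and V had 20.2, 19.7 and 20.4 regions per Mb and shares of 25.9, 25.8 and 25.5%. The X chromosome had the lowest of both, 18.7 regions per Mb and 24.4% (interval 20.1 to 29.3%). A gap of fixed length takes in more neighbours where regions are denser, so density and clustering cannot be told apart by these shares. Median gaps inside clusters ran from 1883 bp on chromosome III to 2854 bp on chromosome IV.

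The chromosome centres, taken as the middle 33.3% of each span, held fewer members. They had 161 of 619 members (26.0%, interval 22.7 to 29.6%) and 514 of 1584 isolated regions (32.4%, interval 30.2 to 34.8%). Seen from the regions, 23.9% of those in the centres and 30.0% of those in the outer parts were members, at densities of 20.2 and 22.9 regions per Mb. Chromosome IV had 16.5% of its central regions in clusters, and chromosome V 28.9%, which was above both of its outer parts. The left part of chromosome I was the most clustered of the 18 chromosome parts, with 79 of 176 regions (44.9%, interval 37.7 to 52.3%) at 35.1 regions per Mb. Without chromosome I the centres held 27.7% of members and 32.3% of isolated regions.

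The replicate lists gave different pictures of place. Taken alone with its leading peaks, replicate 1 had 25.6% of regions in clusters (563 of 2198) and replicate 2 had 32.3% (679 of 2103). Replicate 1 regions in clusters made up 22.5% of those in the centres and 27.0% of those in the outer parts. In replicate 2 these shares were 32.5 and 32.2%, so the lower share in the centres was not seen there. On chromosome I the shares were 29.9% in replicate 1 and 40.4% in replicate 2, and those on chromosome III were 32.0 and 34.6%. The left part of chromosome I stood above the rest of that chromosome in replicate 1 (37.4 and 24.6%) but not in replicate 2 (40.4% in each). The X chromosome had 21.5% in replicate 1 and 31.6% in replicate 2. Of the 563 replicate 1 regions in clusters, 83.7% overlapped combined members, and of the 679 in replicate 2, 46.5% did. In turn 76.3% of the 619 combined members overlapped a clustered region of replicate 1, and 51.4% one of replicate 2.

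**Figure D5:**
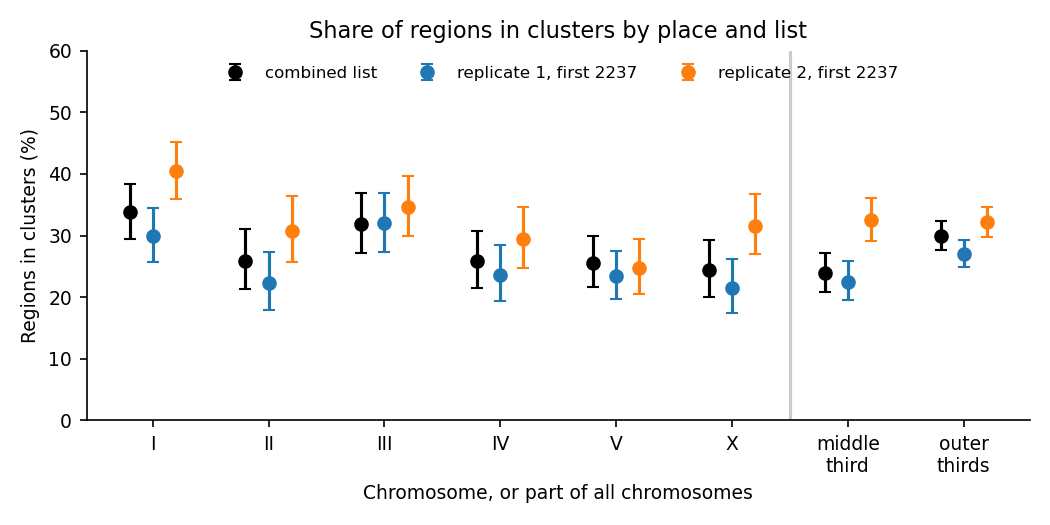
Share of regions that lie in clusters (vertical axis, percent, with 95% Wilson intervals) by chromosome and for the middle and outer parts of all chromosomes, in the combined list and in the first 2237 nuclear peaks of each replicate. Replicate 2 lies above replicate 1 at every place, and only replicate 1 and the combined list show a lower share in the middle.

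The densest stretch was the 1 Mb of chromosome I from 2000001 to 3000000. It held 53 regions, of which 33 (62.3%, interval 48.8 to 74.1%) fell into 13 clusters, where a bin of 1 Mb held a median of 5 members. The same stretch had 28 of 53 regions in clusters in the leading peaks of replicate 1 and 28 of 54 in those of replicate 2, so it was dense in both samples. The 13 clusters included the cluster of 5 with peak 18, the pair with peak 7, the pair with peak 40 and the cluster of 3 with peak 14. Of them, 5 held a peak among the first 100, and 32 of the 33 members overlapped a replicate 2 peak. In the whole list 34 of the 277 clusters held such an early peak, and 90.5% of members overlapped replicate 2. The first 1 Mb of the same chromosome came next, with 20 members among 42 regions. Of the 103 bins with a region, 9 had no member.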

How the data were processed

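Peak lists of 2 ChIP samples and their combined list were analysed; 2 input samples had no list used here. Per the file headers and source columns, peak calling used SPP with IDR (a ranking of peaks by replicate agreement) on WormBase WS220. No source used here gives versions, thresholds, the use of input or the way of combining. The deposited score per peak has no stated unit. It is constant in the combined list and was used elsewhere only to check that the peak number gives the order. Mitochondrial peaks (23 and 25 in the replicates) were left out. Positions are 1-based and inclusive. Computing used scipy 1.17.1, pandas 2.3.3, numpy 2.4.6 and Python 3.11.15; joining, chaining and overlap were tested on simulated lists. Intervals of differences between shares combine both Wilson intervals. Those of differences between medians combine an interval of each median, taken from its ordered values. Chromosome spans run to the last peak of any list. Named regions are all clusters of 4 or more regions, the 10 clusters with the lowest numbers, the first of each chromosome, the 3 closest pairs, and 3 regions on either side of the threshold; the densest 1 Mb was named after its values were seen. Members and lists were chosen with earlier results of these data known. Alternatives were other gaps, joining rules, overlap rules, the better-ranked 50% of lists and single replicates.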

Additional observations from a re-analysis of the deposited data

How the results depend on the processing

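The share of regions in clusters (28.1%) follows the gap and the list length by construction. It was 13.5% with a gap of 2000 bp, 44.6% with 10000 bp, 25.8% with intervals within 500 bp joined first, and 18.8% in the better-ranked 50% of the combined list. The number of clusters (277) was 140 with a gap of 2000 bp and 97 in the better-ranked 50%. The share on chromosome I (33.8%) was 14.8, 51.6 and 24.6% with the shorter gap, the longer gap and the better-ranked 50%. With a replicate left out, the leading peaks of the other gave 25.6 to 32.3% of regions in clusters, 251 to 290 clusters, 29.9 to 40.4% on chromosome I, and 27.4 to 32.4% of members in the centres. The difference in replicate 2 overlap (4.74 percentage points) was 1.49 in the better-ranked 50% (interval −2.29 to 4.01). With a reciprocal overlap of 50% it was −0.208 (interval −4.79 to 4.30). For both replicates (4.48) the same settings gave 1.01 (interval −2.90 to 3.64) and −0.673 (interval −5.27 to 3.86). Each of these intervals took in 0. Reciprocal overlap gave −3.21 for replicate 1 and 4.04 for leading replicate 2 peaks. Under that rule a region narrower than 50% of a peak's width cannot match that peak. How far this accounts for these shifts was not tested, and neither was the cause in the better-ranked 50%. The median width of members was 20 bp below that of isolated regions in the better-ranked 50% and equal otherwise. That difference of −20.0 bp had an interval of −48.3 to 10.4 bp, which took in 0. The earlier median peak number of members kept its direction in all 6 alternatives, but its size of −153.5 was −66.0 with a gap of 2000 bp and −92.0 with 10000 bp, and these intervals took in 0. The settings with members over 1000 bp apart, those for chromosome I and those for leading peaks were chosen after seeing the data. No paired analysis was possible because the input samples had no lists, so no replicate block could be fitted. Depth is unknown and limits all results to an unknown extent.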
